A study of Rattus norvegicus with 60 samples.

Results

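Stress keratins, junction and scaffold genes and ligands of the epidermal growth factor receptor (EGFR) were followed in the lungs of rats that had inhaled multi-walled carbon nanotubes (MWCNT), which are fibre-like particles of rolled carbon sheets. The set holds 9 genes named for their known part in regenerating epithelium: the keratins Krt7, Krt8, Krt18 and Krt19, the claudin Cldn4, stratifin (Sfn), the integrin subunit Itgb6 and the EGFR ligands Areg and Hbegf. They were picked by gene symbol and make up 9 of the 30045 rows of the count table. All 9 passed the filter on low counts, as did 15995 genes in all. Male Fischer 344 rats, about 3 months old and wild type in every group as far as the labels say, breathed MWCNT or filtered air in a whole-body chamber for 6 hours a day on 3 days. Lung was taken 1 day after exposure ended. There were 5 exposure runs at cumulative doses from 11.25 through 22.5, 45 and 90 to 180 mg/m3, called runs 011, 022, 045, 090 and 180 here, and each had its own rats in air. After the 7 libraries that the labels mark as outliers were set aside, the groups held 6 air and 5 exposed rats in run 180, 6 and 4 in run 090, 3 and 6 in run 045, 6 and 6 in run 022, and 6 and 5 in run 011. Each dose was a run of its own, so dose and run cannot be told apart.

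Keratins are the intermediate filament proteins of epithelial cells and assemble as pairs of a type II and a type I chain. Krt8 (type II) and Krt18 (type I) are the usual pair of simple epithelium, and Krt7 (type II) and Krt19 (type I) are found beside them in lung and airway epithelium. In injured lung, alveolar type 2 cells that are on the way to becoming type 1 cells are known to pass through a state with high Krt8, Krt18, Krt19, Cldn4 and Sfn. Cldn4 seals tight junctions, Sfn is a scaffold protein that binds phosphorylated proteins and is a known target of p53, and Itgb6 is the beta chain of an epithelial integrin that activates latent TGF-beta. Areg and Hbegf are made as membrane-bound precursors and bind EGFR after a sheddase has cut them free, and EGFR then signals through the ERK kinases.

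Sequence around the start site is shown for the member with the largest called rise (Sfn), for the keratin pair Krt8 and Krt18, and for the ligand Areg, as a reference for which short motifs lie beside these genes. RefSeq promoters of the GRCr8 build were matched by symbol for 6 of the 9 genes. Each line runs 5′ to 3′ on the gene's own strand, from 250 bases before to 50 bases after the start. Capitals mark matches to the AP-1 motif (TGANTCA), the cAMP response element (CRE, TGACGTCA) and the TATA box (TATAAA).
Sfn: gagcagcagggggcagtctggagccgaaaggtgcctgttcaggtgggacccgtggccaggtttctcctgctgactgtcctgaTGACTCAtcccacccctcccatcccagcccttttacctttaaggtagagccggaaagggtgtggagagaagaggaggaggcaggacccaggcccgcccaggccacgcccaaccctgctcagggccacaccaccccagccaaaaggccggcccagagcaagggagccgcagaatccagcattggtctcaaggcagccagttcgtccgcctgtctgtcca
Krt8: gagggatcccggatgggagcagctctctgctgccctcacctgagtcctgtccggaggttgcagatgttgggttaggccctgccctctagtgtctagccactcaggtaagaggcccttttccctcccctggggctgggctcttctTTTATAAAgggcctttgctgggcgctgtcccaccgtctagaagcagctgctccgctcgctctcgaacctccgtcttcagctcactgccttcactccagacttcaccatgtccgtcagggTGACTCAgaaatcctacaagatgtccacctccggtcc
Krt18: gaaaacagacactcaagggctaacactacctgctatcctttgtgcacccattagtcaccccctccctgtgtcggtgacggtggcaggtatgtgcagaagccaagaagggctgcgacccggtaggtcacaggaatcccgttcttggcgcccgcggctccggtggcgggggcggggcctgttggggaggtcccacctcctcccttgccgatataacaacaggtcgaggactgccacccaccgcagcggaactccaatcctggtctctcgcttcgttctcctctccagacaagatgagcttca
Areg: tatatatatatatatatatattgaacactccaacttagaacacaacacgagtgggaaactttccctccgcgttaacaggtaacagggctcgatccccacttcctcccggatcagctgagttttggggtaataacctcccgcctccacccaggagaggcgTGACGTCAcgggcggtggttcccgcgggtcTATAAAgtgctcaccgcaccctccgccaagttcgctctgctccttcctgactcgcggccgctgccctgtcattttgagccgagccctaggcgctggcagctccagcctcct
The Sfn window is chr5:151111805-151112104 on the minus strand, and that of Krt8 is chr7:135010290-135010589 on the minus strand. The windows of Krt18 (plus strand) and Areg (minus strand) are chr7:135035918-135036217 and chr14:17265592-17265891.

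Motifs were searched on both strands. The AP-1 motif began 168 bases upstream of the Sfn start, and in Krt8 it lay downstream of the annotated start, at base 14 counted from it. A match to this motif occurred in 7.33% of all 33469 promoters of that length. Areg held a CRE 91 bases upstream (1.83% of all promoters) and a TATA box 61 bases upstream (14.2%). The TATA letters of Krt8, 104 bases upstream, overlap a match on the other strand that begins 106 bases upstream. The annotated Krt8 start falls on the letters atg, so it may be a start codon. The Krt8 positions given here may therefore not be distances from a transcription start. A GC box (GGGCGG, 33.1% of all promoters) was found 84 bases upstream in Krt18, 76 in Sfn and 82 in Areg. The letters CCAAT (37.5%) were found in Krt18 and Sfn downstream of the start and in Hbegf 200 bases upstream. The TEAD motif GGAATG (14.2%) was found in 0 of the 6 windows. These matches describe the letters of these windows and say nothing of whether a factor bound there.

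The 53 analysed libraries held 8099154 to 16176867 counts each, with a median of 11221335. Surfactant genes and other markers of alveolar type 2 cells summed to between 20510 and 32000 CPM in every group, where CPM is a gene's count per 1000000 counts of its library. Liver genes took at most 0.0239% of the counts in these libraries. Among the 7 libraries set aside, 3 held 17.3% to 19.5% liver-gene counts. The 9 genes differ widely in depth: the median count in an air library was 3329 for Krt19, 627 for Krt18, 62 for Cldn4, 38 for Sfn and 17 for Areg. The spread between rats beyond counting noise, as a biological coefficient of variation, was 8.68% for Krt8 and 35.1% for Areg, a value above that of 96.4% of genes. CPM is not corrected for transcript length, so levels are compared between rats and never between genes.

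Exposed lungs held more Sfn and Cldn4 mRNA, and the keratins did not move as a group. Sfn was higher in runs 180, 090 and 022 by 1.51-fold to 1.79-fold, and Cldn4 in runs 180 and 022 by 1.42-fold and 1.52-fold. Krt8 and Krt18 lay above the air mean in every exposed rat of runs 180, 090, 045 and 022, and Krt18 did so in run 011 as well. Their fitted group changes were 1.12-fold to 1.22-fold in runs 180, 090, 045 and 022. For Krt18 in run 011 the group change was 1.14-fold. Neither gene passed the test in any single run. Krt7, Krt19, Itgb6, Areg and Hbegf passed it in 0 of the 5 runs. In lung tissue a lower or higher level may reflect a different number of cells of a type or a different amount of RNA per cell, and these cannot be told apart.

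**Figure D1:**
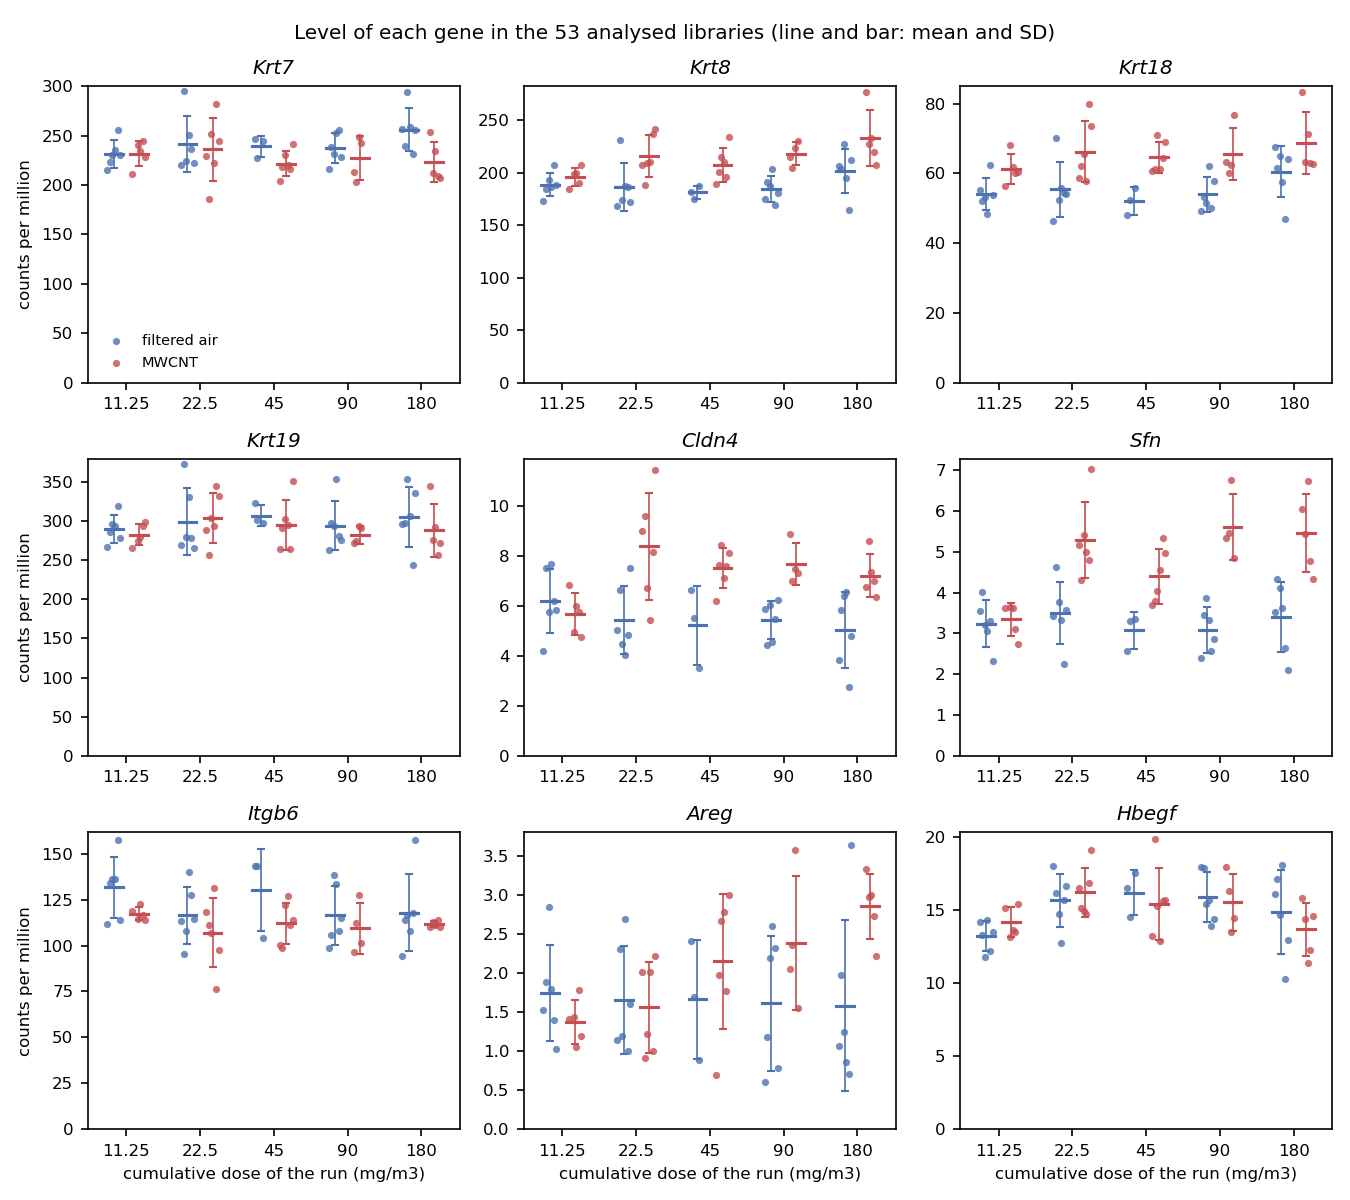
Level of each of the 9 genes in CPM (vertical axis, from 0) in the 53 analysed libraries, by the cumulative dose of the run (horizontal axis, mg/m3). Each point is 1 rat, blue for filtered air and red for MWCNT, with the mean and SD of the group. The 5 MWCNT rats of run 180 lie between 4.34 and 6.73 CPM for Sfn, all at or above the highest air rat of that run (4.33 CPM).

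Counted over the set, 2 of 9 genes were called higher in run 180, 1 in run 090, 0 in run 045, 2 in run 022 and 0 in run 011. A call means an edgeR quasi-likelihood adjusted p under 0.05 over all 15995 genes. Of all genes tested, 12% were called higher and 10.9% lower in run 180, 6.82% and 4.28% in run 090, 3.32% and 2.09% in run 045, 5.18% and 1.62% in run 022, and 0.025% and 0% in run 011. In 0 of the 5 runs was a member called lower. At an unadjusted p under 0.05 there were 5, 4, 3, 4 and 0 members in runs 180, 090, 045, 022 and 011. The median log2 fold change of the 9 genes was 0.17 in run 180, 0.21 in run 090, 0.16 in run 045, 0.04 in run 022 and 0.01 in run 011. Over all genes that median lay between -0.01 and 0.01 in each run. Where groups are said not to overlap in CPM, the share of all genes that did so was not computed. Nor was the share of all genes computed where exposed rats are said to lie above or below an air mean or median. Such statements only describe the rats shown, and separation is easiest to reach in run 045, which has 3 air rats.

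**Figure D2:**
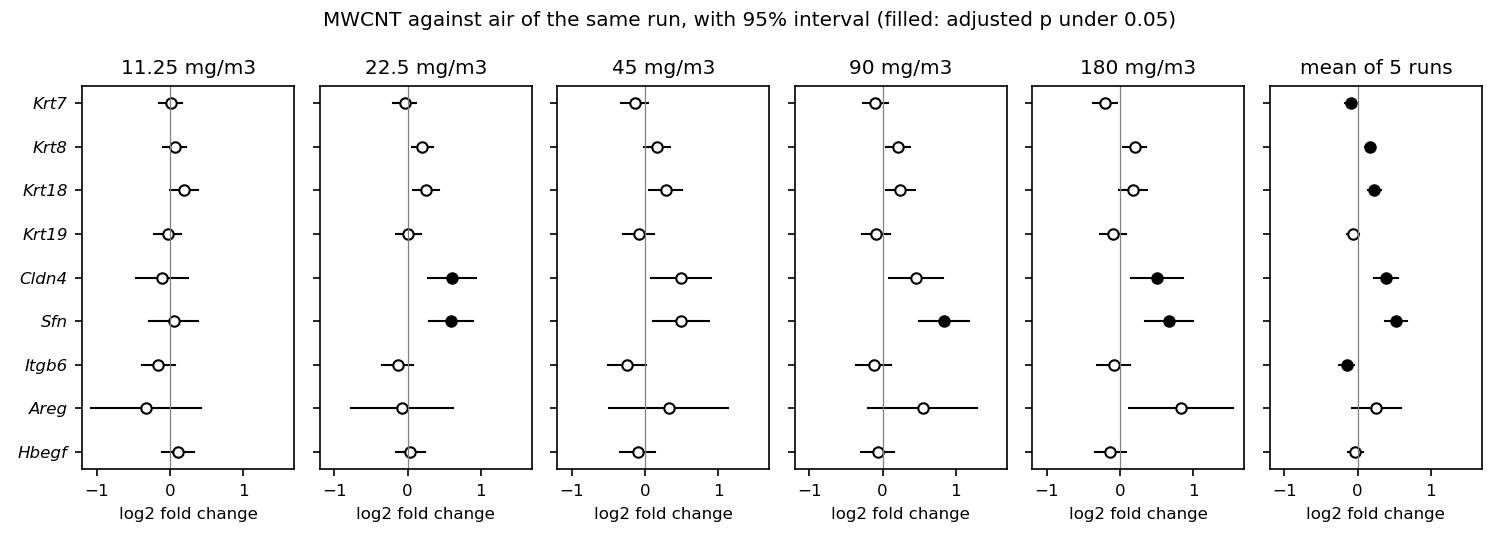
The log2 fold change of MWCNT against the air rats of the same run (horizontal axis) for each gene (rows) in each run, with its 95% interval, and the mean of the 5 runs at the right. Filled points passed an adjusted p under 0.05. Sfn is filled at 22.5, 90 and 180 mg/m3 and Cldn4 at 22.5 and 180 mg/m3.

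Sfn showed the clearest rise of the 9. In run 180 its level in air ran from 2.11 to 4.33 CPM with a median of 3.58 (mean 3.39 ± 0.86, SD, n = 6), and the exposed rats had 6.05, 5.43, 6.73, 4.77 and 4.34 CPM (mean 5.46 ± 0.96, SD, n = 5). The highest air rat and the lowest exposed rat touched without overlapping. The log2 fold change was 0.67 ± 0.16 (SE, adjusted p = 0.00132, edgeR). In run 090 air rats ran from 2.39 to 3.88 CPM with a median of 3.09, and the 4 exposed rats had 5.35, 5.46, 6.76 and 4.85 CPM. All 4 lay above all 6 air rats, at a log2 fold change of 0.84 ± 0.17 (SE, adjusted p = 0.000329).

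In run 022 Sfn ran from 2.26 to 4.62 CPM in air (median 3.51) and from 4.30 to 7.02 CPM after exposure (median 5.08). Here 5 of the 6 exposed rats exceeded every air rat, with a log2 fold change of 0.59 ± 0.15 (SE, adjusted p = 0.0081). In run 045 the 3 air rats had 2.56, 3.31 and 3.36 CPM and the 6 exposed rats 3.69 to 5.33 CPM (median 4.29), again without overlap. That change of 0.49 ± 0.19 (SE) did not pass the test (adjusted p = 0.128). Run 011 showed values of 2.32 to 4.02 CPM in air (median 3.26) against 3.62, 3.64, 3.63, 3.11 and 2.75 CPM, which overlap throughout (log2 fold change 0.05 ± 0.17, SE, adjusted p = 0.999). The call in run 022 was lost without MWCNT_022 replicate 6, the highest rat of that group (adjusted p = 0.0518), and when the run was fitted alone (adjusted p = 0.0965). With all 60 libraries the calls in runs 180, 090 and 022 were lost (adjusted p = 0.115, 0.122 and 0.69), while Sfn still lay higher by 0.70, 0.49 and 0.58.

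Cldn4, the claudin, rose in the same direction with more spread between rats. In run 022 it ran from 4.04 to 7.54 CPM in air (median 4.96) and from 5.43 to 11.5 CPM after exposure (median 8.58), and 4 of 6 exposed rats exceeded every air rat. The log2 fold change was 0.61 ± 0.16 (SE, adjusted p = 0.0138). In run 180 air rats had 2.75 to 6.59 CPM (median 5.31) and exposed rats 6.79, 8.62, 7.35, 6.997 and 6.35 CPM, so that the lowest exposed rat lay within the air range. The change there was 0.51 ± 0.18 (SE, adjusted p = 0.0335).

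In run 090 all 4 exposed rats (8.91, 7.01, 7.49 and 7.32 CPM) exceeded all 6 air rats (4.45 to 6.24 CPM, median 5.68), yet the change of 0.46 ± 0.18 (SE) had an adjusted p of 0.101. Run 045 gave 6.66, 5.51 and 3.54 CPM in air and 6.22 to 8.46 CPM after exposure (median 7.63), a change of 0.48 ± 0.20 (SE, adjusted p = 0.175). In run 011 the air rats (4.22 to 7.69 CPM, median 6.02) covered all exposed rats, which had 6.84, 4.97, 6.02, 5.78 and 4.77 CPM (log2 fold change -0.11 ± 0.18, SE, adjusted p = 0.999). The run 180 call depended on single rats. It was lost without air_180 replicate 1, 5 or 6 (adjusted p = 0.0903, 0.115 and 0.0534) and without MWCNT_180 replicate 3, 4 or 5 (adjusted p = 0.102, 0.0632 and 0.0519). It was also lost when the run was fitted alone (adjusted p = 0.0602), and the run 022 call was lost without MWCNT_022 replicate 6 (adjusted p = 0.0811) and alone (adjusted p = 0.169). With all 60 libraries both calls were lost (adjusted p = 0.578 in run 180 and 1 in run 022).

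Krt8 and Krt18, the pair of simple epithelium, gave small and even differences. Krt8 in run 180 ran from 164.6 to 227.5 CPM in air (median 205.1), and the exposed rats had 276.8, 226.8, 233.3, 219.9 and 207.1 CPM. All 5 exposed rats lay above the air median, 2 of them above every air rat and 3 within the air range, and the log2 fold change of 0.20 ± 0.08 (SE) missed the threshold (adjusted p = 0.0518). In run 090 the exposed rats had 215.0, 204.3, 223.0 and 229.8 CPM, all above the air range of 168.9 to 203.9 CPM (median 184.1), with a change of 0.21 ± 0.08 (SE, adjusted p = 0.0904). Run 045 also had no overlap, with 181.7, 174.9 and 187.2 CPM in air and 189.0 to 234.3 CPM (median 205.4) after exposure (adjusted p = 0.339). In run 022 the range was 168.4 to 231.0 CPM in air (median 180.0) and 188.4 to 241.6 CPM after exposure (median 209.9), a change of 0.20 ± 0.07 (SE, adjusted p = 0.0906). In run 011 it was 172.9 to 206.9 CPM (median 187.4) against 184.6, 198.8, 199.6, 190.5 and 207.0 CPM, a change of 0.06 ± 0.08 (SE, adjusted p = 0.999).

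Several of these Krt8 values lie near the threshold. Run 180 passed without air_180 replicate 3 or 6 (adjusted p = 0.0231 and 0.0434), without MWCNT_180 replicate 6 (adjusted p = 0.0277), with DESeq2 (adjusted p = 0.0415) and with limma's voom weights (adjusted p = 0.0227). Run 022 passed without air_022 replicate 2 (adjusted p = 0.00511), whose 231.0 CPM stands apart from the other air rats of that run, and without MWCNT_022 replicate 2 (adjusted p = 0.0355). Run 090 passed without air_090 replicate 4 (adjusted p = 0.0476), with voom (adjusted p = 0.00786) and with the run fitted alone (adjusted p = 0.0166).

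Krt18 had the same form. Its exposed means were 68.7 ± 8.9 (SD, n = 5), 65.5 ± 7.5 (n = 4), 64.6 ± 4.4 (n = 6), 66.3 ± 8.8 (n = 6) and 61.4 ± 4.3 CPM (n = 5) in runs 180, 090, 045, 022 and 011. The air means were 60.5 ± 7.4 (n = 6), 54 ± 5.01 (n = 6), 52.1 ± 3.9 (n = 3), 55.5 ± 7.9 (n = 6) and 54.2 ± 4.6 CPM (n = 6). All 26 exposed rats lay above the mean of their own air group. The groups were free of overlap in run 045 alone, where the air rats had 48.1, 52.4 and 55.9 CPM and the exposed rats 60.7 to 71.0 CPM (median 62.9). The log2 fold changes were 0.17 ± 0.09, 0.24 ± 0.10, 0.28 ± 0.11, 0.25 ± 0.09 and 0.19 ± 0.09 (SE), with adjusted p-values of 0.2, 0.115, 0.138, 0.0872 and 0.999. Without air_022 replicate 2 or MWCNT_022 replicate 4, Krt18 passed in run 022 (adjusted p = 0.00801 and 0.0472).

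Krt7 and Krt19 did not share this rise. In run 180 Krt7 ran from 231.0 to 294.2 CPM in air (median 256.4), and the exposed rats had 253.5, 212.3, 234.3, 209.6 and 207.6 CPM. All 5 lay below the air mean and 3 lay below every air rat. The log2 fold change of -0.21 ± 0.08 (SE) missed the threshold (adjusted p = 0.0567), and Krt7 passed as lower without air_180 replicate 2 or 5 (adjusted p = 0.0444 and 0.0327) and without MWCNT_180 replicate 2 or 4 (adjusted p = 0.0196 and 0.0499). It also passed with DESeq2, with voom and with the run fitted alone (adjusted p = 0.0494, 0.0104 and 0.0369). In the other runs its changes were -0.10, -0.14, -0.04 and 0.01 in the order 090, 045, 022 and 011. Krt19 changed by -0.09 in runs 180, 090 and 045, by 0.01 in run 022 and by -0.03 in run 011, with SEs of 0.09 to 0.10 and adjusted p-values of 0.517 to 0.999. Its exposed group means ran from 282.4 to 303.6 CPM and its air group means from 290.4 to 307.1 CPM.

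Because the 2 pairs of keratins parted, the ratio of Krt8 to Krt7 counts within each library was computed, a comparison chosen after the values had been seen. A small constant was added to every count before the ratios were taken. In run 180 the ratio was 0.713 to 0.848 in air (median 0.789) and 1.09, 1.07, 0.996, 1.05 and 0.998 in the exposed rats. No exposed rat of this run reached down to the air range. In run 090 it was 0.660 to 0.812 in air (median 0.802) against 1.01, 1.01, 0.895 and 0.948. In run 045 it was 0.737, 0.769 and 0.766 in air against 0.904 to 0.971 (median 0.929).

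Run 022 gave ratios of 0.747 to 0.788 in air (median 0.773) and 0.830 to 1.01 after exposure (median 0.926), again without overlap. In run 011 the ranges overlapped, with 0.792 to 0.837 in air (median 0.813) against 0.872, 0.828, 0.853, 0.780 and 0.905. A two-sided exact permutation test gave the smallest p the group sizes allow in the first 4 of these runs, 0.00433, 0.00952, 0.0238 and 0.00216, and 0.156 in run 011. Adjusted over the 180 tests of 36 gene pairs in 5 runs, these became 0.0504, 0.0504, 0.0809, 0.0504 and 0.278, and 0 of the 180 passed. Without any 1 of the 3 air rats of run 045 the permutation p there was 0.0714. That is the smallest p the remaining rats allow, so this check could not have passed and decides nothing. Without MWCNT_011 replicate 5 the run 011 value passed unadjusted (permutation p = 0.019). For comparison, 16.0%, 8.69%, 16.2%, 2.03% and 0.144% of all genes had a ratio to Krt7 that lay higher in every exposed library of runs 180, 090, 045, 022 and 011.

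**Figure D3:**
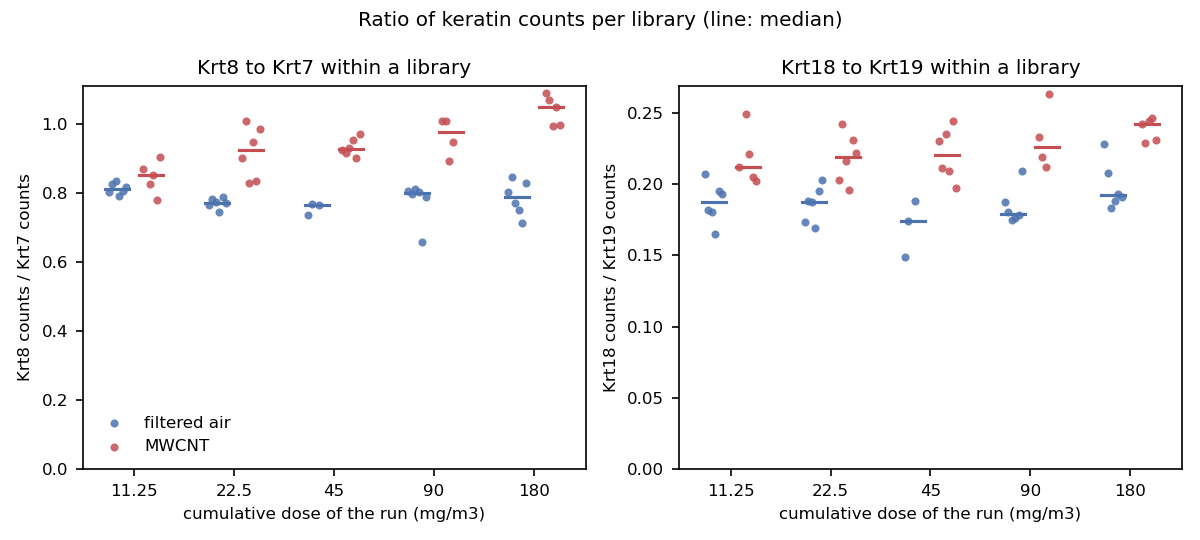
Ratio of Krt8 to Krt7 counts (left) and of Krt18 to Krt19 counts (right) in each analysed library (vertical axes, from 0), by the cumulative dose of the run (horizontal axes, mg/m3). Blue points are air rats, red points MWCNT rats, and lines mark medians. The Krt8 to Krt7 ratio has an exposed median of 1.05 and an air median of 0.789 in the 180 mg/m3 run, and the groups overlap only in the 11.25 mg/m3 run.

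Over all runs together, with rats permuted within their run (100000 resamples), the mean shift of the Krt8 to Krt7 ratio was 0.26 on the log2 scale, or 1.20-fold, and had the same sign in 5 of 5 runs. Its p of 1e-05 is the smallest that these resamples can give, and 2.6e-05 after adjustment over the 36 pairs. The ratio of Krt18 to Krt19 shifted by 0.28 and that of Krt8 to Krt19 by 0.23, both in 5 of 5 runs and with the same smallest p. Krt19 against Krt7 shifted by 0.04 (permutation p = 0.092, adjusted p = 0.13). Of the 36 pairs, 22 had an adjusted p under 0.05. The pairs reuse the same 9 genes, so they are not separate results, and the share among pairs of all genes was not computed. By the mean of the 5 within-run effects, 16.5% of all genes were called higher and 15.7% lower. A ratio within a library shows that the 2 genes changed unequally and does not say which of them changed.

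Itgb6, the integrin chain, stayed level or slightly low. Its air group means were 116.5 to 131.7 CPM and its exposed group means 107.0 to 117.3 CPM. The change was -0.09, -0.12, -0.24, -0.14 and -0.16 in runs 180, 090, 045, 022 and 011, with SEs of 0.11 to 0.13. In run 180 the value rests on air_180 replicate 6, which at 157.6 CPM stands above the other 5 air rats (94.5 to 117.7 CPM), and without it the change was 0.01.

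Of the EGFR ligands, Areg had few counts and wide intervals. In run 180 it had 1.07, 1.97, 1.25, 0.860, 0.713 and 3.65 CPM in air, and 3.33, 2.98, 3.00, 2.74 and 2.22 CPM after exposure. A single air rat, replicate 6, lay above all exposed rats, and the other 5 lay below all of them. The log2 fold change was 0.83 ± 0.35 (SE, 95% interval 0.12 to 1.54) and did not pass (adjusted p = 0.0838). Without air_180 replicate 6 it was 1.24 and passed (adjusted p = 0.0068), and it also passed with voom (adjusted p = 0.0281) and with the 57 libraries that lack a liver profile (adjusted p = 0.0399). In runs 090, 045, 022 and 011 the changes were 0.55 ± 0.37, 0.32 ± 0.41, -0.08 ± 0.35 and -0.33 ± 0.37 (SE). With 6 to 54 counts in a library, Areg had SEs of 0.35 to 0.41, the widest of the 9 genes.

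Hbegf was measured more evenly, at 10.3 to 18.1 CPM in air and 11.4 to 19.8 CPM after exposure. Its changes in runs 180, 090, 045, 022 and 011 were -0.13, -0.07, -0.10, 0.04 and 0.11, with SEs of 0.10 to 0.12. The exposed and air ranges overlapped in every run.

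A mean of the 5 within-run effects, added after the data had been seen, had a smaller SE for each gene than any single run. By this measure 4 of the 9 genes were higher and 2 lower, where 16.5% of all genes were higher and 15.7% lower. Sfn was higher by 0.53 ± 0.08 (SE, adjusted p = 1.34e-07), Cldn4 by 0.39 ± 0.08 (adjusted p = 0.000145), Krt18 by 0.23 ± 0.04 (adjusted p = 4.78e-05) and Krt8 by 0.17 ± 0.04 (adjusted p = 0.000184). Itgb6 was lower, at -0.15 ± 0.05 (adjusted p = 0.0209), and so was Krt7, at -0.10 ± 0.04 (adjusted p = 0.0419).

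The calls of Sfn, Cldn4, Krt18 and Krt8 held in every fit that left out 1 library. The Itgb6 call was lost without air_045 replicate 2 (adjusted p = 0.0509). The Krt7 call was lost in 12 such fits, namely without MWCNT_011 replicate 1 or 6, air_022 replicate 4, MWCNT_022 replicate 2 or 4, air_045 replicate 1 or 4, MWCNT_045 replicate 1, MWCNT_090 replicate 1 or 2, air_180 replicate 3 or MWCNT_180 replicate 3. Its adjusted p then ran from 0.05 to 0.0724. With all 60 libraries, Sfn alone of the 6 stayed past the threshold. Krt19 (-0.06, 95% interval -0.14 to 0.02), Areg (0.26, -0.08 to 0.59) and Hbegf (-0.03, -0.13 to 0.07) did not pass.

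Whether the effect differed between runs was tested directly. Of the 9 genes, 0 had a dose slope past the threshold, where 10.7% of all genes did, and 2 had an unadjusted p under 0.05. Sfn gained 0.15 ± 0.05 (SE) on the log2 scale per doubling of dose (adjusted p = 0.0552), and Areg 0.30 ± 0.11 (SE, adjusted p = 0.0913). The slope of Sfn passed with DESeq2's size factors (adjusted p = 0.0499), with the stricter filter (adjusted p = 0.0467) and in 9 fits that left out 1 library, where its adjusted p ran from 0.0262 to 0.0465. These were the fits without air_011 replicate 6, air_022 replicate 5, MWCNT_022 replicate 6, air_090 replicate 3, MWCNT_090 replicate 4, air_180 replicate 2 or 3, or MWCNT_180 replicate 5 or 6. The slope of Areg passed with voom (adjusted p = 0.026) and without air_180 replicate 6 (adjusted p = 0.0159).

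Any difference of the effect among the 5 runs passed for 0 of the 9 genes (4.92% of all genes), with unadjusted p-values of 0.0236 for Sfn and 0.0457 for Cldn4. Between neighbouring runs, 0 of the 9 genes differed at any step, where 0.781% of all genes differed between runs 022 and 011 and 0% at each of the 3 higher steps. At the lowest step, from 11.25 to 22.5 mg/m3, the Cldn4 effect was larger by 0.72 ± 0.24 (SE, unadjusted p = 0.00457, adjusted p = 0.184) and that of Sfn by 0.54 ± 0.22 (SE, unadjusted p = 0.0205, adjusted p = 0.339). At the 3 higher steps, 0 of the 9 had an unadjusted p under 0.05. The 5 air groups did not differ for any of the 9 genes past the threshold (7.11% of all genes did), and at an unadjusted p under 0.05 the number was also 0.

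The genes did not vary together as a single group. After each library was set against the mean of its own group, the keratins moved together from rat to rat, with a Pearson correlation of 0.92 between Krt8 and Krt19, 0.85 between Krt7 and Krt19 and 0.83 between Krt8 and Krt18 over 53 libraries. Leaving out the 2 farthest libraries gave 0.90, 0.81 and 0.78. Cldn4 with Sfn had a correlation of 0.24 and Krt8 with Sfn one of 0.37. Itgb6 ran with Areg (0.57) and against Hbegf (-0.50). Both genes of a pair were read from the same library and piece of tissue in each rat, and the values are descriptions.

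By a fixed rule, the genes most like the mean of the set were S100a4 (r = 0.81), S100a10 (0.80), Anxa2 (0.80), Sec11c (0.79) and Sar1b (0.79), out of 14718 candidates over 53 libraries, each set against its own run's air mean. S100a10 and Anxa2 encode partners in a calcium-regulated membrane complex. The gene closest to Sfn was Kpna2 (0.84), an importin, which was higher in run 180 by 0.61 ± 0.07 (SE, adjusted p = 4.7e-09). Slc44a4 (0.88), a choline transporter family member, was closest to Cldn4 and was higher in run 180 by 0.76 ± 0.13 (SE, adjusted p = 7.22e-06). For the other members the closest genes were Cryab for Krt7 (0.87), Fuca1 for Krt8 (0.86), Fkbp11 for Krt18 (0.80), S100a6 for Krt19 (0.87), Lrrfip1 for Itgb6 (0.84), Ckmt1b for Areg (0.68) and Pnkd for Hbegf (0.62).

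Most other ligands, receptors and sheddases of the EGF family were not called in any single run. In run 180, 2 of 13 tested genes were higher and 0 lower, with a median log2 fold change of 0.04 against -0.01 over all genes. Of all genes in that run, 12% were called higher and 10.9% lower. Ereg, the ligand closest in kind to Areg, went from 0.777 ± 0.453 (SD, n = 6) to 1.66 ± 0.41 CPM (SD, n = 5), a change of 1.10 ± 0.30 (SE, adjusted p = 0.00501), and it was also higher in run 090, by 1.04 ± 0.31 (SE, adjusted p = 0.0177). Rhbdf2, which helps the sheddase Adam17 mature, was higher in run 180 by 0.44 (adjusted p = 3.68e-07) and in run 090 by 0.21. The receptors Egfr (-0.07, adjusted p = 0.619), Erbb2 (0.18, adjusted p = 0.31) and Erbb3 (0.33, adjusted p = 0.0912) and the ligand Tgfa (0.04, adjusted p = 0.858) did not pass in run 180. In runs 045, 022 and 011, 0 of the 13 were called.

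Of 15 tested genes that ERK signalling is known to induce, 3 were higher and 3 lower in run 180, with a median of -0.08. Of all genes in that run 12% were higher and 10.9% lower, so with so few genes these counts show nothing particular to the list. Ier3 (0.80), Myc (0.50) and Phlda1 (0.35) rose, while Etv4 (-0.52), Spry1 (-0.30) and Dusp6 (-0.26), the last 2 being feedback inhibitors of the pathway, fell. In run 090, 1 was higher and 2 lower, in each of runs 045 and 022 there were 0 higher and 2 lower, and in run 011 there were 0.

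**Figure D4:**
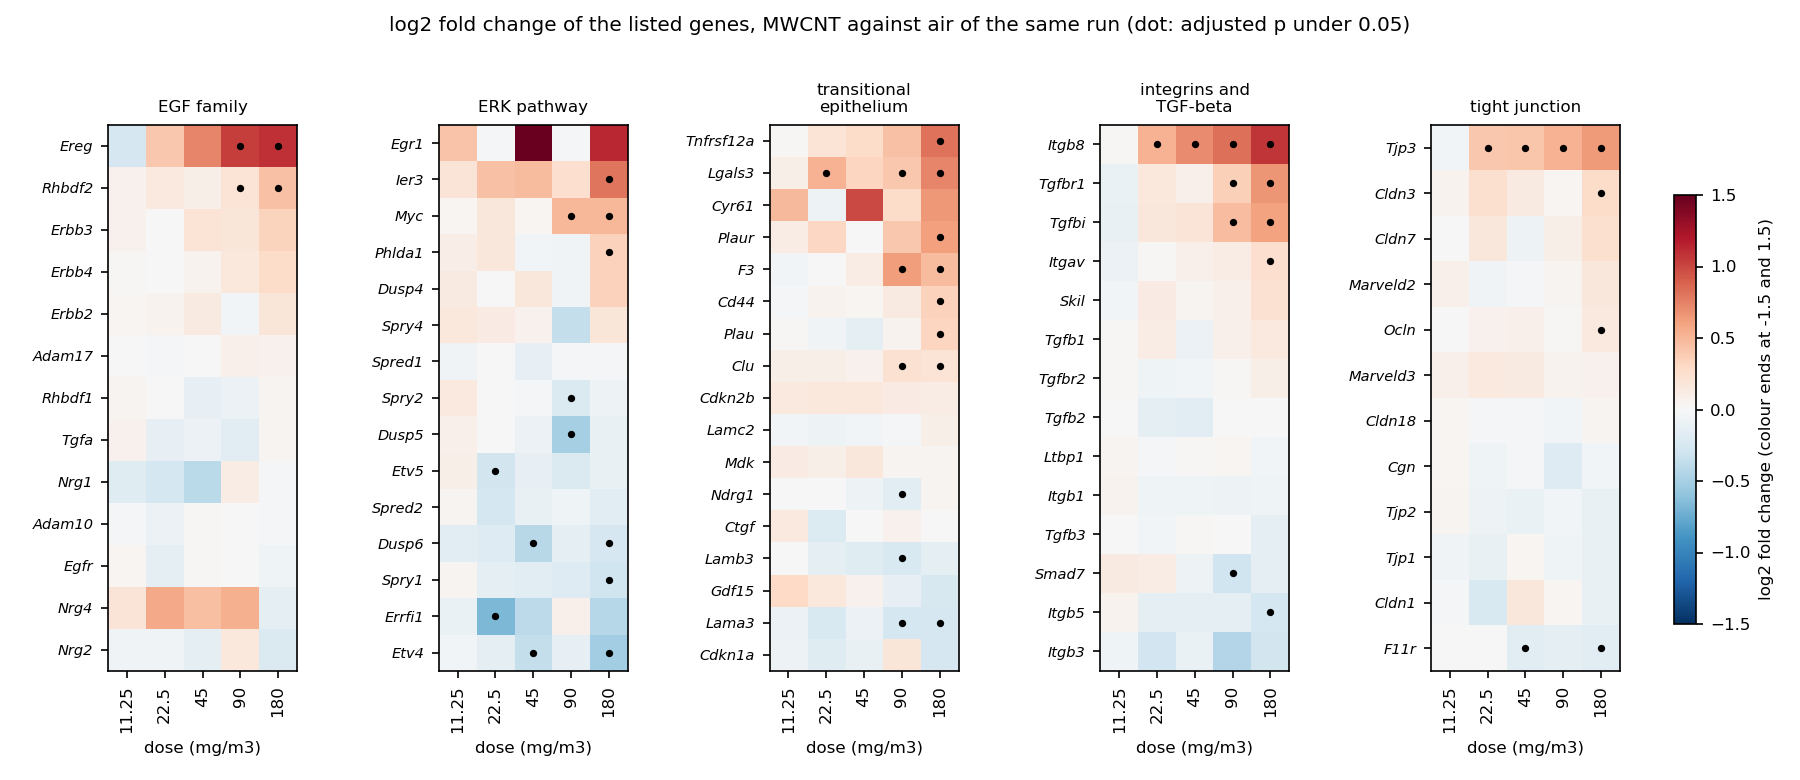
The log2 fold change of the tested genes of 5 lists, with 1 gene not shown (colour, red for higher and blue for lower with MWCNT) in each run (columns, cumulative dose in mg/m3), sorted by run 180. A dot marks an adjusted p under 0.05, and colours end at -1.5 and 1.5. Itgb8 and Tjp3 carry a dot in runs 180, 090, 045 and 022, and in the 11.25 mg/m3 column no gene has one.

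In run 180, 12% of all genes were called higher and 10.9% lower. Among other genes of the transitional alveolar state, 7 of 17 were higher and 1 lower in that run, with a median of 0.11. The largest rises were those of Tnfrsf12a, the TWEAK receptor (0.81, adjusted p = 2.56e-05), Lgals3, a galectin that macrophages also make (0.73, adjusted p = 2.05e-05), and Plaur, the urokinase receptor (0.62, adjusted p = 0.000405). Lama3, a laminin chain of the epithelial basement membrane, was lower (-0.25, adjusted p = 0.0142). Cdkn1a, the p53 target that encodes p21, had a change of -0.26 (adjusted p = 0.371). In run 090 the counts were 3 higher and 3 lower, in run 022 they were 1 and 0, and in runs 045 and 011 they were 0 and 0.

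Of the integrins and TGF-beta genes around Itgb6, 5 of 15 were higher and 1 lower in run 180. The shares of all genes were 12% and 10.9%, and the median of the list was 0.09. Itgb8, another integrin chain known to activate TGF-beta, was higher in run 180 by 1.08 (adjusted p = 1.02e-08). It was also higher by 0.82 in run 090, by 0.71 in run 045 and by 0.52 in run 022. Tgfbr1, the type I receptor, was higher by 0.67 in run 180 (adjusted p = 2.88e-06) and Itgb5 lower by 0.27 (log2 fold change -0.27, adjusted p = 0.00024). The counts were 4 higher and 1 lower in run 090, 1 and 0 in runs 045 and 022, and 0 and 0 in run 011.

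Among 12 tight junction genes other than Cldn4, 3 were higher and 1 lower in run 180, with a median of 0.05. Of all genes in that run, 12% were higher and 10.9% lower. Tjp3, a scaffold of the junction plaque, was higher in runs 180, 090, 045 and 022, by 0.64, 0.52, 0.42 and 0.40. Cldn3 (0.28) and Ocln (0.15) were higher and F11r (-0.17) lower in run 180. The 6 other genes of the Sfn family gave changes within -0.08 and 0.19 in run 180, where Ywhah (0.19) and Ywhae (0.12) were called higher. Of 6 other keratins tested, only Krt15 was called, higher by 1.20 (adjusted p = 0.00254), 1.60, 1.37 and 1.22 in runs 180, 090, 045 and 022. It is a basal cell keratin and its level in run 180 went from 5.79 ± 2.79 (SD, n = 6) to 13.4 ± 4.0 CPM (SD, n = 5).

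Markers of whole cell types moved beside these genes, and their part in the results was not tested. In run 180, 12% of all genes were called higher and 10.9% lower. General epithelial markers were higher for 7 of 10 genes and lower for 0 in that run. Their summed level was 1136 to 1223 CPM in air and 1345 to 1404 CPM after exposure in that run, 1069 to 1190 against 1201 to 1352 CPM in run 090, 1132 to 1247 against 1254 to 1315 CPM in run 045, 1086 to 1247 against 1213 to 1361 CPM in run 022, and 1158 to 1255 against 1232 to 1298 CPM in run 011. Elf3, an epithelial transcription factor, was the member with the largest change (1.16 in run 180). Alveolar type 1 markers were lower for 3 of 7 genes in run 180, with sums of 7663 to 8357 CPM in air and 6596 to 6744 CPM after exposure. Alveolar type 2 markers were higher for 3 of 8, with sums of 22900 to 29360 against 30200 to 32000 CPM. Club cell markers were lower for 4 of 6, with sums of 5807 to 8895 against 4018 to 4923 CPM.

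Of all genes, 12%, 6.82%, 3.32%, 5.18% and 0.025% were called higher in runs 180, 090, 045, 022 and 011, and 10.9% lower in run 180. Proliferation markers were higher for 6 of 6 genes in each of runs 180, 090, 045 and 022, and for 0 in run 011. Their sums in run 180 were 43.3 to 56.9 CPM in air and 142.2 to 158.8 CPM after exposure. Neutrophil markers were higher for 5 of 5 tested genes in run 180 (123.3 to 208.3 against 238.8 to 312.6 CPM), and macrophage and monocyte markers for 5 of 7 (692.6 to 891.6 against 883.2 to 937.9 CPM). Mesothelial markers, whose cells also make Krt7, Krt8, Krt18 and Krt19, were called for 0 of 6 genes in each run. Their sums ranged widely among rats, from 107.6 to 250.7 CPM in air and from 42.2 to 195.1 CPM after exposure in run 180. Ciliated cell markers were higher for 3 of 6 and lower for 1 in that run and their summed level was lower (654.0 to 948.7 against 519.8 to 645.8 CPM). Of the 3 basal markers tested, Krt15, counted above, was higher. Endothelial markers were lower for 5 of 6 (3007 to 3516 against 2574 to 2841 CPM). Markers of mast cells, eosinophils and basophils were higher for 2 of 5, those of type 2 lymphoid and regulatory T cells for 1 of 5, and those of liver for 0 of 10.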

How the data were processed

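RNA was measured by stranded mRNA sequencing of 60 rat lung libraries. The values are raw counts per gene that the authors deposited in a single table. Per the submitters' processing notes the tools were bcl2fastq 2.19, Trimmomatic 0.35, HISAT2 2.1.0, SAMtools 1.8, HTSeq 0.11.2 and Cufflinks, with no roles stated, and the genome build is not given in the sources used here. Libraries with an outlier label (7) were left out of the main fit.

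The counts of 53 libraries in 10 groups were fitted together in edgeR 4.0.16 (TMM, robust quasi-likelihood test, filterByExpr with a minimum count of 10, R 4.3.3), and p-values were adjusted by Benjamini-Hochberg over 15995 genes. The filter removed 14050 rows. A gene was called at an adjusted p under 0.05, and intervals are 95%. CPM gives a gene's count per 1000000 counts of its library. The fit was tested on simulated data. Alternatives used DESeq2 1.42.0, limma 3.58.1 (voom), other filters, other library sets and each run alone. Ratios were tested by permutation in SciPy 1.17.1.

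The 9 genes and the gene lists were chosen with earlier results of these data known. All 9 are named, and of each list the 3 called genes with the largest rise and the 3 with the largest fall in run 180, plus Egfr, Erbb2, Erbb3, Tgfa, Ereg and Cdkn1a, except 1 gene that is counted in its list and not reported here. The mean effect and the ratios were added after the data had been seen. The labels give each library its own rat, though rats were caged together and a run was exposed together. Libraries within a group differed by at least 2.59 in chi-square per degree of freedom, so none was a duplicate. Promoter sequences are from RefSeq (GRCr8), matched by symbol.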

Additional observations from a re-analysis of the deposited data

Results flagged for a closer look

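Of 81 groups of 4 to 10 values of these genes, 3 held a value far from the others, where chance gives about 1 in 20 groups (4.05). These were Krt8 in air_022 replicate 2 (231.0 CPM, the other 5 rats at 168.4 to 187.0), Krt19 in air_090 replicate 4 (353.9 CPM, the others at 263.6 to 297.3) and Itgb6 in air_180 replicate 6 (157.6 CPM, the others at 94.5 to 117.7).

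Libraries that carry an outlier label were used in no comparison, and some of their levels lay above the highest of the 27 analysed air libraries. In air_045 replicate 3, the shallowest library at 5190834 counts, Krt7 was 329.6 CPM (highest air library 294.9), Krt8 271.4 CPM (231.0), Krt18 82.26 CPM (70.17), Krt19 415.0 CPM (372.6) and Sfn 6.743 CPM (4.624). In MWCNT_180 replicate 1, Krt8 was 248.7 CPM, Krt18 70.7 CPM, Cldn4 8.113 CPM (highest air library 7.689), Sfn 6.31 CPM and Areg 3.863 CPM (3.646).

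The 3 libraries with 17.3% to 19.5% liver-gene counts had Krt18 at 142.0 CPM (air_045 replicate 5), 214.8 CPM (MWCNT_090 replicate 5) and 313.3 CPM (MWCNT_090 replicate 6). Krt8 was 243.1 CPM in MWCNT_090 replicate 6. Krt7 was 0.0823, 2.84 and 0.932 CPM in the same order of libraries. The ratio of Krt8 to Krt7 counts, with the small constant added to both, was 1160, 62.5 and 246. At so few Krt7 counts the constant itself lowers the ratio, most in air_045 replicate 5, so these values are rough. Areg had 0 counts in all 3.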

How the results depend on the processing

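No paired analysis was possible because the labels give each rat a number of its own and replicate numbers here only name samples. With all 60 libraries, 0 members were called higher in run 180, 2 in run 090 and 0 in run 022. The mean effect was then higher for 1 member and lower for 0, 2 members differed among runs, 2 between runs 045 and 090, and 1 between runs 090 and 180. All genes called numbered 614 in run 180, 5122 in run 090, 163 in run 022, 0 in run 011 and 1268 for the mean effect. Run 045 changed sign for Krt7 (0.017), Krt8 (-0.21), Krt18 (-0.88), Krt19 (0.067), Itgb6 (0.030) and Hbegf (0.26), as did the slopes of Krt18 (0.24) and Itgb6 (-0.047) and the run 045 log2 ratios of Krt8 to Krt7 (-1.49) and Krt18 to Krt19 (-1.21). These fits add libraries with liver counts, and without those, in 57 libraries, Hbegf alone changed sign (0.040 in run 045, 0.011 for the mean effect).

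With voom, 4 members were higher and 1 lower in run 180, 5 were higher in run 090 and 1 in run 045, and 1 slope passed. All genes called were then 3189 in run 090 and 1857 in run 045, and in run 022 Areg (0.19) and Hbegf (-0.0048) changed sign. DESeq2 called 1 member lower in run 180. Fitted alone, run 180 gave 1 higher and 1 lower, run 090 gave 3 higher, run 045 gave 1 and run 022 gave 0, with 341 genes in all called in run 022. The slope count was 1 with DESeq2's size factors and 1 with the stricter filter, where the Krt18 slope was 0.00048. The cause of these changes was not tested.

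Leaving out 1 library at a time, the members higher ranged from 1 to 3 in run 180, 1 to 2 in run 090 and 0 to 4 in run 022, those lower in run 180 from 0 to 1, slopes from 0 to 1 and mean effects lower from 1 to 2. Genes called ranged from 377 to 811 in run 045 (553, 423 and 377 without air_045 replicates 1, 2 and 4), from 735 to 2919 in run 022 (2919 without air_022 replicate 2) and from 2 to 5 in run 011 (2 without air_011 replicate 1 or 5 or MWCNT_011 replicate 3 or 5). Small effects crossed 0: Itgb6 in run 180 (-0.15 to 0.012), in run 022 Krt7 (-0.12 to 0.023), Krt19 (-0.050 to 0.082), Areg (-0.21 to 0.11) and Hbegf (-0.012 to 0.079), in run 011 Krt7 (-0.016 to 0.032) and Sfn (-0.036 to 0.12), and the Krt18 slope (-0.017 to 0.0062). Areg had both few counts (a median of 17 in an air library) and a wide spread between rats (35.1%), and their parts in its errors were not tested.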
